A study of Mus musculus with 12 samples.

Results

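Early and late effects of Stag2 loss were compared in all 12 libraries of the series, 12 of 12, taken as every library of the 1-week and the 1-month count tables. RNA came from peeled mouse urothelium, the epithelium that lines the urinary tract, and was sequenced from the 3′ ends of transcripts. There were 3 libraries in each of 4 groups: Stag2-WT at 1 week, Stag2-KO at 1 week, Stag2-WT at 1 month and Stag2-KO at 1 month, counted from the start of a diet with TMX. Both genotypes were fed the diet for a week, so the controls had it too. The labels do not say whether a library is 1 animal or a pool, so the p-values below measure the spread between these libraries. The transgene or Cre that acts on Stag2, its promoter, the part of the gene it removes, and the sex and age of the animals are not given in the sources used here. The quantity described is, for each gene, the log2 difference of KO minus WT at 1 week, the same at 1 month, and the 1-month difference minus the 1-week difference, called the difference between times. A gene said below to have risen or fallen at 1 month was higher or lower in KO than in WT at that time. No change of level from 1 week to 1 month is meant.

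Cohesin is a ring of SMC1A, SMC3 and RAD21 that holds sister chromatids together and shapes chromatin loops, and it carries either STAG1 or STAG2 as a further subunit. DREAM is a complex of E2F, retinoblastoma-family and MuvB proteins that keeps genes of the cell cycle off while a cell rests. Urothelium is a resting epithelium of basal, intermediate and umbrella cells, which divides rarely unless it is injured.

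Total counts per library ran from 5580961 to 9497088. All 6 libraries of 1 week belong to batch 1, 2 WT and 2 KO libraries of 1 month to batch 2, and replicate 3 of each genotype at 1 month to batch 3, so time and batch cannot be told apart and no level at 1 week is compared with a level at 1 month. Uroplakins, the membrane proteins of umbrella cells, summed to between 4514 and 22523 CPM (counts scaled to a common library depth) in the 12 libraries, so the labelled tissue carried its defining transcripts. Markers of fibroblasts, smooth muscle and endothelium summed to between 491 and 2573 CPM and those of leukocytes to between 119 and 591 CPM. KO replicate 3 at 1 week was the least like the others, with Spearman correlations of 0.689 to 0.809 to the other libraries of its time across 11577 genes, against up to 0.984 between the others. Every KO library of 1 week carried Xist, the transcript that silences an X chromosome, at 1123 to 1374 CPM, with at most 2 counts from any of 4 Y-linked genes, and every WT library of 1 week showed the reverse. At 1 month only KO replicate 3 carried Xist, at 1212 CPM. At 1 week the genotype and the sex read from these transcripts therefore cannot be told apart, and this touches every 1-week value below. Values of 1 month are given by batch for some of the genes and lists. WT replicate 3 of 1 month carries one animal number in its sample title and another in its library name, and it was matched to its counts through the library name. Every batch 3 value rests on this library and on KO replicate 3.

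Stag2 itself was lower in KO by a like amount at both times, which the interval of the difference limits to under 2-fold. At 1 week Stag2 had 122, 106 and 162 CPM in WT replicates 1 to 3 and 75.9, 59.7 and 65.3 CPM in KO. At 1 month it had 58.9, 60.1 and 46.2 CPM in WT and 38.4, 37.2 and 19.8 CPM in KO. Every KO library lay below every WT library of its time. The log2 difference was -0.89 (SE 0.27) at 1 week and -0.88 (SE 0.22) at 1 month, with adjusted p of 0.198 and 0.0507 by edgeR's quasi-likelihood test. The difference between times for Stag2 was 0.02 (SE 0.33, 95% interval -0.71 to 0.75, adjusted p = 0.982 in the edgeR interaction fit). Reads come from 3′ ends, so they show a deletion only where it lowers the whole transcript, and in bulk RNA fewer cells of a type and less RNA per cell cannot be told apart. Stag1, the gene of the alternative subunit, had 63.1, 67.3 and 68.1 CPM in WT and 75.7, 86.0 and 147 CPM in KO at 1 week. At 1 month Stag1 had 20.1, 22.02 and 35.2 CPM in WT and 24.4, 30.7 and 22.8 CPM in KO, where the genotypes overlapped. Its difference between times was -0.70 (SE 0.44, adjusted p = 0.381 by edgeR).

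Most genes separated between KO and WT at 1 week, by a rule that pools batches, were not separated at 1 month. A gene was called separated at a time when all 3 KO libraries lay above, or all below, all 3 WT libraries and the log2 difference was at least 1 in size. Of 11919 genes tested at both times, 873 were separated as higher in KO at 1 week (7.32%) and 696 as lower (5.84%), against 187 higher (1.57%) and 246 lower (2.06%) at 1 month. Only-early genes were the bulk, with 809 higher (6.79%) and 635 lower (5.33%) at 1 week alone. Late genes were fewer, with 141 higher (1.18%) and 167 lower (1.4%) at 1 month alone. The rule on overlap takes no account of batch, and 1 week holds batch 1 alone but 1 month batches 2 and 3. A spread between batches can therefore make the genotypes overlap at 1 month. This also holds for the counts below of genes wholly above or below WT. The order of early and late genes turned with batch 2 alone at 1 month. There only 2 libraries of each genotype, all of 1 batch, have to lie apart. Then 1194 genes were separated at 1 week alone and 1358 at 1 month alone. Persistent genes numbered 33 higher (0.277%) and 48 lower (0.403%) at both times. A further 44 lay on opposite sides of WT at the 2 times, 31 higher then lower (0.26%) and 13 lower then higher (0.109%), and 10042 were separated at neither time (84.3%). Of the genes separated as higher at 1 week, 3.78% were also higher and 3.55% lower at 1 month. Of those separated as lower at 1 week, 6.90% were lower and 1.87% higher at 1 month.

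In the edgeR interaction fit of all 12 libraries with batch as a term, 0 of 13122 genes passed an adjusted p of 0.05 (0%). At an unadjusted p under 0.05 there were 2611 genes (19.9%), of which 1578 had a lower difference at 1 month (12%) and 1033 a higher one (7.87%). The smallest adjusted p was 0.0879, shared by Mki67 and other genes named below. DESeq2 called 917 genes, 612 lower and 305 higher, and limma with voom and group quality weights called 67, 66 of them lower. The edgeR count depended on single libraries: it was 215, 440 and 311 without KO replicate 1, 2 or 3 of 1 week, 14 without KO replicate 3 of 1 month and 15 without WT replicate 3 of 1 month. With the presence of Xist as a further term, 506 of 13122 genes had an unadjusted p under 0.05 and 0 passed. At 1 week this term equals genotype. Its size is set by KO replicate 3 of 1 month against the other 1-month libraries, with WT replicate 3 setting the batch term. Values with the Xist term therefore set the single batch 3 pair of 1 month against the 1-week difference. They do not tell sex from genotype at 1 week. Single times gave 8 called genes of 12754 at 1 week (0.0627%), 2 higher (0.0157%) and 6 lower (0.047%), and 269 of 12139 at 1 month (2.22%), 121 higher (0.997%) and 148 lower (1.22%). Scaled by library size alone, the 1-month calls were 456 higher and 105 lower, and that scaling moved the median difference between times of all genes from -0.02 to 0.23. The 1-week count was 56, 2 and 320 without KO replicate 1, 2 or 3, 0 without WT replicate 1 or 2 and 1 without WT replicate 3. The 1-month count was 63, 84 and 1513 without KO replicate 1, 2 or 3, and 83, 45 and 1522 without WT replicate 1, 2 or 3. It was 0 without the batch term and 0 when read from the fit of all 12 libraries, so every single 1-month call given below is also lost in those 2 fits. The spread between replicates, as the coefficient of biological variation, was 44.4% at 1 week and 24.2% at 1 month.

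**Figure D1:**
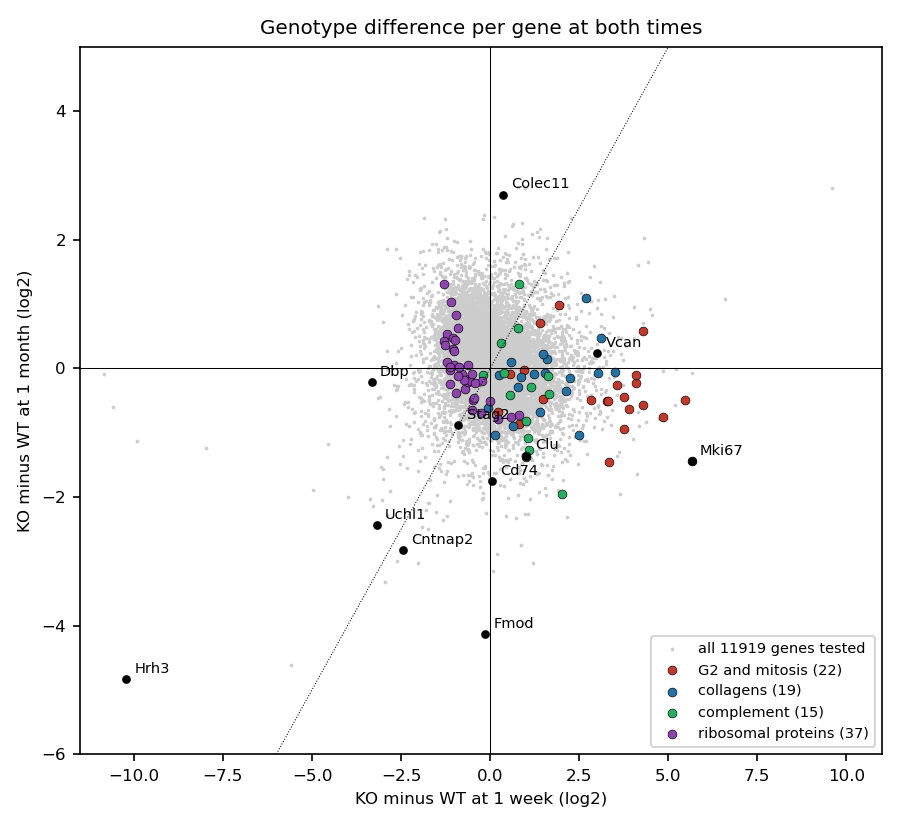
Each point is 1 of 11919 genes, with its log2 difference of KO minus WT at 1 week on the horizontal axis and at 1 month on the vertical axis; the dotted line marks equal differences. Genes of G2 and mitosis and collagens spread to the right near the horizontal line through 0, while Hrh3, Uchl1 and Cntnap2 lie in the lower left.

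How the early difference carried over depended on the 1-month batch. Of the 873 genes higher in KO at 1 week, 351 were higher in KO within batch 2 and 601 within the single batch 3 pair, with medians of -0.14 and 0.32. Of 692 genes lower at 1 week, with Xist and the Y-linked genes left out, 480 were higher within batch 2 and 218 within batch 3, with medians of 0.43 and -0.28. Over 11919 genes the Spearman correlation of the 1-week with the 1-month difference was -0.21 with both batches, -0.30 with batch 2 and 0.14 with the batch 3 pair, given as a description because genes are not independent and the libraries are shared. Without KO replicate 3 of 1 week the last 2 values were -0.20 and 0.29. In the batch 3 pair the KO library carries Xist and the WT library does not, as at 1 week, whereas no library of batch 2 carries it. The part of this in the carry-over was not tested.

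Genes of G2 and mitosis had the highest median difference of all lists at 1 week, 3.45, and a median of -0.49 at 1 month. The promoters of 4 cell cycle genes named below are shown because DREAM and its partners act through short letters in this window, the CHR element and the CCAAT box in genes of mitosis and E2F sites in genes of replication. Each runs from 250 bases before to 50 bases after the first listed start, from RefSeq on GRCm38.p6, 5′ to 3′ on the gene's strand. Capitals mark matches to 3 sets of letters, each searched on both strands. CHR letters are TTTGAA and its variant with a changed base, TTCGAA. The box is CCAAT, which on the other strand reads ATTGG. E2F letters are GCGGGAA and the longer forms GCGCCAAA as well as GCGCGAAA, and in Mcm5 a run of capitals holds 2 E2F matches that overlap. They lie at chr7:135716330-135716629 (minus strand), chr2:69206164-69206463 (minus), chr3:135212313-135212612 (plus) and chr8:75109259-75109558 (plus), in the order shown.
Mki67: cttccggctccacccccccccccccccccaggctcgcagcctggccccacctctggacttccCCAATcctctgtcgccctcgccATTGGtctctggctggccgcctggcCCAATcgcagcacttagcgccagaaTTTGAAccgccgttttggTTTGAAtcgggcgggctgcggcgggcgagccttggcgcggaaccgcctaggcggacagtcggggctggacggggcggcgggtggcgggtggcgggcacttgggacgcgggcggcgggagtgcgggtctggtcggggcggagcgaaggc
Spc25: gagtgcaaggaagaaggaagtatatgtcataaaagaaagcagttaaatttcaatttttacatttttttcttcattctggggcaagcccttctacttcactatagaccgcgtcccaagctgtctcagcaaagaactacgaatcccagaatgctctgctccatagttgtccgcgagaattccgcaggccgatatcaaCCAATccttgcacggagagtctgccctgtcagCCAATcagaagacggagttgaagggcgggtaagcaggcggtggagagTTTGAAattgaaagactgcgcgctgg
Cenpe: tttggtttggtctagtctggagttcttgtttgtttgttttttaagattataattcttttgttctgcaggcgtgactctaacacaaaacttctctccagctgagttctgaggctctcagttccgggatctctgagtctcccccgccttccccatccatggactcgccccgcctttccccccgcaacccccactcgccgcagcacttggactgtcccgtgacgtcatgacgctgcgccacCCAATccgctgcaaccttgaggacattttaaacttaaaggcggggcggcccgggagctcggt
Mcm5: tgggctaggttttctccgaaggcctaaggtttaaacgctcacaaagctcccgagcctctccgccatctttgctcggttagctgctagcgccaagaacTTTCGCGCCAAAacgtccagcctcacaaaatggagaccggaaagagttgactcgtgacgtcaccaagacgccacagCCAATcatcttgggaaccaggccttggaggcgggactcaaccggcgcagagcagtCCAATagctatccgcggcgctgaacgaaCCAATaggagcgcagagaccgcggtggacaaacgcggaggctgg

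Mki67 and Spc25 hold CHR letters and CCAAT, Cenpe holds CCAAT without CHR letters in this window, and Mcm5 holds CCAAT and E2F letters. Of the 49 listed genes of G2 and mitosis, 41 had a promoter in the table, and CHR letters stood in 31 of them (75.6%) against 19.4% of all 27025 promoters. CCAAT stood in 78.0% of them against 37.9% of all promoters. Of 30 promoters of the S phase list, 13.3% held CHR letters, 63.3% CCAAT and 56.7% E2F letters, the last against 5.40% of all promoters and 9.73% of those of genes tested at both times. Among genes separated as higher at 1 week alone, 13.6% of 601 promoters held CHR letters, near the 13.1% of the 9476 promoters of genes tested at both times. A match is a description of letters and not of binding.

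Mki67, whose protein coats chromosomes in dividing cells, was among the genes with the largest difference between times. It had 2.70, 2.87 and 1.96 CPM in WT and 27.2, 188 and 148 CPM in KO at 1 week, with KO far above WT. At 1 month it had 24.1, 8.56 and 3.66 CPM in WT and 3.74, 3.59 and 4.53 CPM in KO, where KO replicates 1 and 3 lay above WT replicate 3. The log2 difference of Mki67 was 5.66 (SE 0.79) at 1 week and -1.44 (SE 0.54) at 1 month, with -1.89 in batch 2 and 0.29 in batch 3, and the difference between times was -7.10 (SE 1.08, adjusted p = 0.0879 by edgeR).
Spc25, a part of the NDC80 complex of the kinetochore, had 3.56, 1.83 and 3.37 CPM in WT and 14.003, 47.5 and 23.7 CPM in KO at 1 week. At 1 month Spc25 had 10.2, 4.02 and 6.10 CPM in WT and 2.37, 2.12 and 3.12 CPM in KO, so KO lay above WT early and below it late, without overlap at either time. Its difference between times was -4.80 (SE 0.75).
Cenpe, a kinesin that moves chromosomes to the spindle equator, stood at 1.61 to 2.45 CPM in WT and 14.1, 82.4 and 62.2 CPM in KO at 1 week, and at 1.25 to 6.06 CPM with overlap at 1 month. Its difference between times was -5.62 (SE 0.86). The topoisomerase gene Top2a and the kinetochore gene Cenpf had differences between times of -4.84 (SE 0.90) and -3.80 (SE 0.71). The clamp-associated factor gene 2810417H13Rik, now named Pclaf, had -5.77 (SE 0.97).

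Over all 49 members of the G2 and mitosis list, with no filter on counts, the mean was higher in KO for 49 of 49 at 1 week, where it was so for 48.8% of 19564 genes with counts, and for 9 at 1 month (48.3% of all genes). All 3 KO libraries lay above all WT libraries for 36 of 49 at 1 week, where 9.39% of all genes did so, and for 1 of 49 at 1 month (5.41% of all genes). KO lay wholly below WT for 0 at 1 week (10.6%) and for 7 at 1 month (5.01%). The summed level of the list was 196 to 221 CPM in WT and 465, 2131 and 1179 CPM in KO at 1 week. At 1 month it was 253, 194 and 181 CPM in WT and 165, 161 and 163 CPM in KO. The early KO libraries thus differed widely among themselves, and at 1 month every KO library lay below every WT library. Over the 22 members tested at both times the median difference between times was -3.83, and -2.42 without KO replicate 2 of 1 week, against -0.02 over all genes tested. DESeq2 called 30 of the 40 members it tested and limma with voom called 10, all with a lower difference at 1 month.

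Of 41 genes of DNA replication and S phase, 39 had a higher mean in KO at 1 week, with a median difference of 1.51 over those tested at both times. Mcm5, a subunit of the replicative helicase, had 3.68, 3.90 and 1.41 CPM in WT and 10.6, 38.8 and 55.7 CPM in KO at 1 week. At 1 month Mcm5 had 14.9, 10.1 and 6.40 CPM in WT and 4.49, 5.06 and 3.28 CPM in KO. It therefore lay on opposite sides of WT without overlap, with a difference between times of -4.90 (SE 0.83). Its partner Mcm3 had -2.56 (SE 0.56), the DNA ligase gene Lig1 -2.31 (SE 0.54) and the checkpoint gene Clspn -4.81 (SE 0.86). At 1 month the mean was higher in KO for 18 of the 41. KO lay wholly above WT for 20 at 1 week (9.39% of all genes) and 3 at 1 month (5.41%). Their summed level was 380 to 463 CPM in WT and 605, 1216 and 1634 CPM in KO at 1 week, and 314 to 542 CPM in WT and 340 to 421 CPM in KO at 1 month, where they overlapped. The median difference between times was -1.64 over 28 members tested at both times, and -1.47 without KO replicate 3 of 1 week.

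The DREAM, E2F and retinoblastoma family itself was split. Its cell cycle-regulated members were higher early: E2f8, an atypical repressor E2F, had 0.109 to 1.03 CPM in WT and 5.92, 13.8 and 70.1 CPM in KO at 1 week and 0 to 1.37 CPM in all libraries of 1 month. The activator gene E2f1 and the mitotic activators Mybl2 and Foxm1 had differences between times of -3.00 (SE 0.87), -2.49 (SE 0.88) and -2.51 (SE 0.81). The abundant members Rbbp4, a histone-binding MuvB subunit, and Dyrk1a, the kinase that assembles DREAM, had 0.12 and -0.14, and each of these 2 signs turned under at least 1 alternative. Over 16 members tested at both times the median difference between times was -0.23, with 11 members below 0 and 5 above. Over all genes it was -0.02. Under scaling by library size the median of the family was 0.03, where that of all genes was 0.23. KO lay wholly above WT for 7 of 20 members at 1 week (9.39% of all genes) and for 0 at 1 month (5.41%), and wholly below for 1 and 0. The median ran from -0.10 without WT replicate 2 of 1 month to -0.48 without KO or WT replicate 3 of 1 month, with -0.40 without KO replicate 2 and -0.39 without WT replicate 1 of 1 month.

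**Figure D2:**
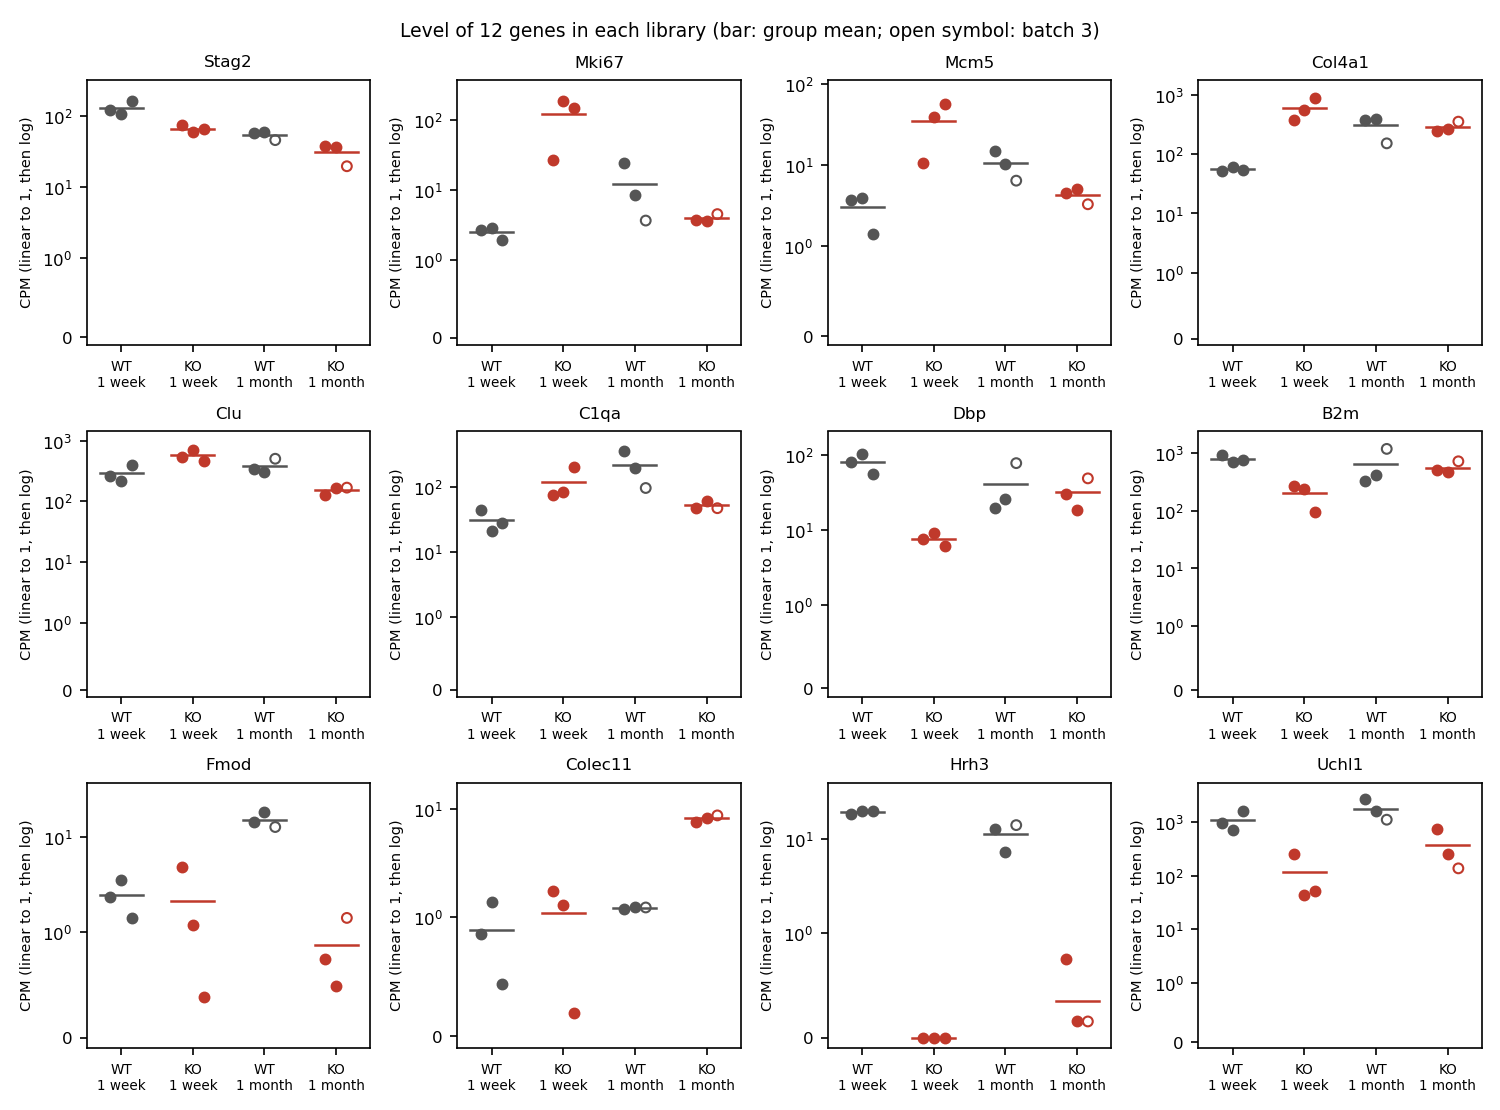
Level of 12 genes in each of the 12 libraries, in CPM on an axis that is linear up to 1 and logarithmic above, with 1 point per library, a bar at the mean of each group and open symbols for batch 3. Mki67 and Col4a1 are higher in KO at 1 week only, and Mcm5, Clu and C1qa are higher in KO at 1 week and lower at 1 month. Fmod and Colec11 differ at 1 month only, and Hrh3 and Uchl1 are lower in KO at both times.

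Of 19 collagen genes, 18 had a higher mean in KO at 1 week and 6 at 1 month, and of 28 matrix glycoproteins and proteoglycans 25 and 16; no collagen passed the test at 1 week. Col4a1, a chain of the basement membrane collagen, had 52.8, 61.5 and 54.1 CPM in WT and 382, 550.2 and 888 CPM in KO at 1 week. At 1 month Col4a1 had 372, 398 and 152 CPM in WT and 246, 266 and 353 CPM in KO, where the genotypes overlapped and the sign differed by batch, with -0.59 in batch 2 and 1.21 in batch 3. Its difference between times was -3.55 (SE 0.59, adjusted p = 0.0879 by edgeR). Its chain partner Col4a2 had -2.62 (SE 0.56), and the fibrillar and associated chains Col5a2, Col11a1 and Col12a1 had -2.38 (SE 0.43), -3.78 (SE 0.61) and -3.09 (SE 0.58). C1qtnf6, a secreted protein with a collagen-like stretch, had the smallest interaction p of all, with 3.70 to 4.70 CPM in WT and 19.1, 25.9 and 34.1 CPM in KO at 1 week, 12.96 to 27.4 CPM in WT and 9.37 to 25.2 CPM in KO at 1 month, and a difference between times of -3.14 (SE 0.45).

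All 19 listed collagen genes were tested at both times, and all 19 had a lower difference at 1 month than at 1 week. The median was -1.52, and -1.47 without KO replicate 3 of 1 week. It was -1.22 with the Xist term, a value that rests on KO and WT replicate 3 of 1 month. Of the 19, 11 had an unadjusted interaction p under 0.05, all lower, where 12% of all genes did so, and DESeq2 called 9 and limma with voom 4. KO lay wholly above WT for 10 of 19 at 1 week (9.39% of all genes) and 0 at 1 month (5.41%), and wholly below for 0 and 4 (10.6% and 5.01%). The summed collagen level was 3267, 4180 and 2778 CPM in WT and 7358, 9343 and 5862 CPM in KO at 1 week. At 1 month it was 11430, 12645 and 8822 CPM in WT and 8909, 7003 and 9278 CPM in KO. KO was above WT without overlap early, and at 1 month batch 2 had KO below WT and batch 3 had it slightly above. Col6a3, chosen after its values were seen, was the only member that passed the test at 1 month, at 1.09 (SE 0.24, adjusted p = 0.0379 by edgeR), a call of Col6a3 lost without KO replicate 1 or 2 or WT replicate 1 or 2 (0.0788 to 0.142).

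Vcan, the gene of the large matrix proteoglycan versican, was the one gene outside the sex-linked set that passed the test as higher at 1 week. It had 62.5, 67.8 and 62.8 CPM in WT and 398, 561 and 534 CPM in KO, a log2 difference of 3.01 (SE 0.30, adjusted p = 0.0275 by edgeR). The call of Vcan was lost without KO replicate 2 (adjusted p = 0.0633 by edgeR) and without WT replicate 1, 2 or 3 of 1 week (0.323 to 0.437). At 1 month Vcan had 124, 209 and 53.1 CPM in WT and 87.4, 155 and 199 CPM in KO, with overlap, and a difference between times of -2.77 (SE 0.66). The collagen-binding glycoprotein gene Sparc and the small proteoglycan gene Bgn had differences between times of -3.11 (SE 0.58) and -3.47 (SE 0.67), and the basement membrane linker gene Nid1 -3.50 (SE 0.78). Tnc, the gene of tenascin-C, a matrix protein of healing tissue, stayed higher: 18.2 to 23.6 CPM in WT and 172, 353 and 176 CPM in KO at 1 week, then 59.3, 99.8 and 82.3 CPM in WT and 119.8, 146 and 340.1 CPM in KO. The genotypes did not overlap at either time, and the difference between times of Tnc was -2.35 (SE 0.55). Over 28 matrix glycoproteins and proteoglycans the median difference between times was -1.52, with 16 of 28 wholly above WT at 1 week (9.39% of all genes) and 2 at 1 month (5.41%). At 1 month Mgp passed as higher and Fbln2 and Fmod as lower, the first 2 chosen after their values were seen.

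Of matrix proteases, their inhibitors and cross-linking enzymes, 13 of 21 members lay wholly above WT at 1 week (9.39% of all genes) and 1 at 1 month (5.41%). The inhibitor gene Timp1 and the cross-linking enzyme gene Lox had differences between times of -3.61 (SE 0.86) and -3.75 (SE 0.89). Mmp2, a gelatinase gene, had -1.71 (SE 0.59). The list's median difference between times was -1.003 over 16 members, and -0.60 with the Xist term.

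Markers of fibroblasts, smooth muscle and endothelium moved with the matrix genes. Their sum over all 19 was 491, 664 and 508 CPM in WT and 1122, 2036 and 2573 CPM in KO at 1 week, and 821, 888 and 1568 CPM in WT and 911, 1303 and 1223 CPM in KO at 1 month. No member was at 0 in any group, and 10 of 19 lay wholly above WT at 1 week (9.39% of all genes) against 3 at 1 month (5.41%). Myl9 and Tagln, genes of the contractile apparatus, had differences between times of -2.88 (SE 0.50) and -4.90 (SE 0.98), and the fibroblast receptor gene Pdgfra -2.76 (SE 0.80). The median over the list was -1.31, -0.96 without KO replicate 3 of 1 week and -0.50 with batch 2 alone at 1 month or without either replicate 3 of 1 month. Pdgfrb, chosen after its values were seen, passed at 1 month as higher, at 1.30 (SE 0.24, adjusted p = 0.0218 by edgeR), a call of Pdgfrb lost without KO replicate 1 or 2 or WT replicate 1 or 2 (0.0505 to 0.102). The part of these cells in the matrix result was not tested.

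**Figure D3:**
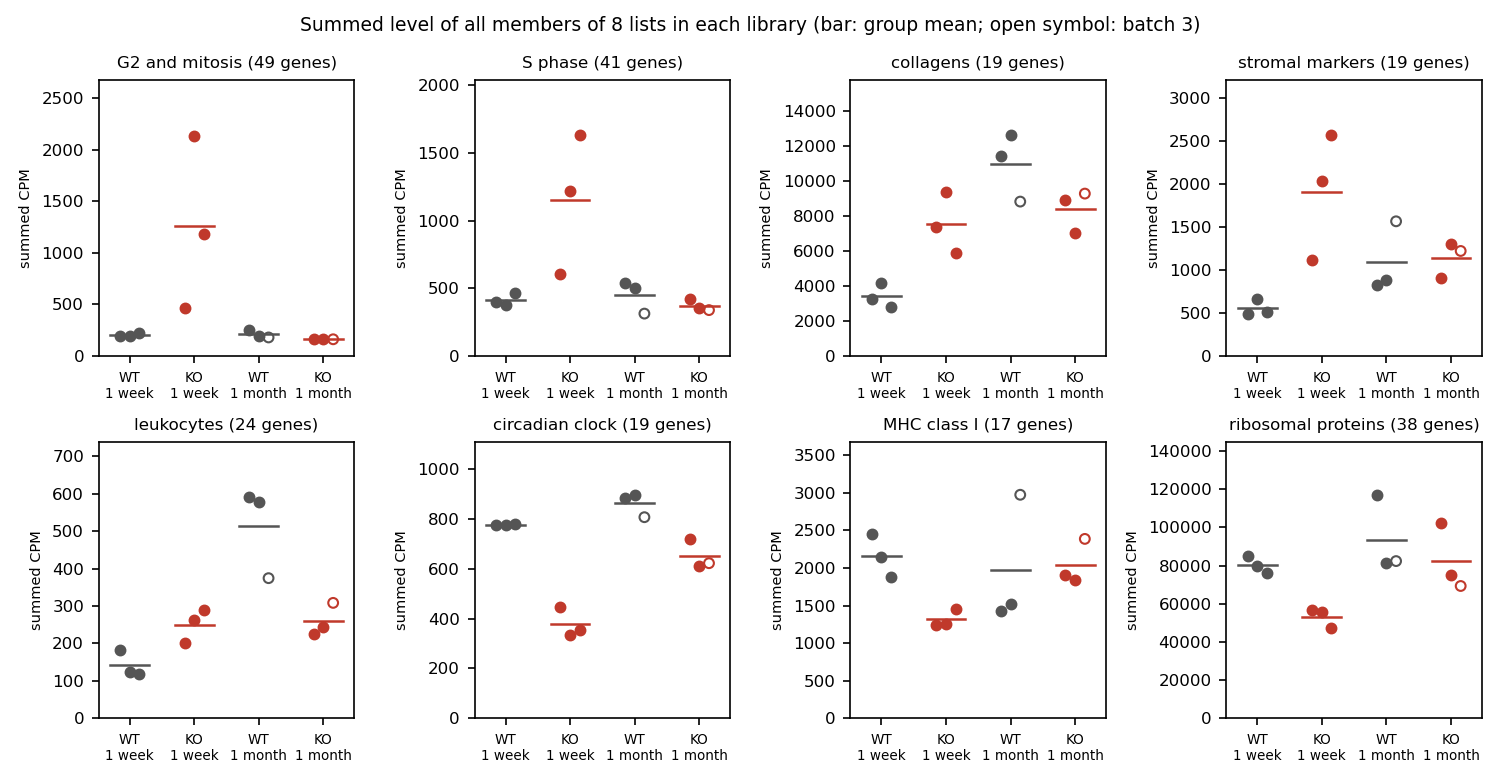
Summed CPM of all members of 8 gene lists in each library, with no filter on counts, 1 point per library, a bar at the group mean and open symbols for batch 3; stromal markers are those of fibroblasts, smooth muscle and endothelium. G2 and mitosis genes run from 465 to 2131 CPM in KO at 1 week and from 161 to 253 CPM in all libraries of 1 month. The sum of leukocyte markers is higher in KO at 1 week and lower in KO at 1 month. Of the 24 single markers, 4 lie wholly above WT at 1 week (9.39% of all genes) and 3 wholly below (10.6%).

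Of 17 complement genes, 16 had a higher mean in KO at 1 week, where none passed the test, and 12 a lower mean at 1 month, where 3 passed as lower and 1 as higher. Their summed level was 842 to 943 CPM in WT and 1378 to 2025 CPM in KO at 1 week, and 1367 to 1921 CPM in WT and 1010.4 to 2609 CPM in KO at 1 month, with overlap and a higher mean in KO. C1qa, a chain of the first complement component that macrophages make, had 45.3, 21.4 and 28.2 CPM in WT and 75.4, 85.9 and 206 CPM in KO at 1 week. At 1 month C1qa had 359, 194 and 97.3 CPM in WT and 48.7, 61.7 and 47.6 CPM in KO. The genotypes did not overlap at either time. The log2 difference of C1qa was 2.03 (SE 0.51, adjusted p = 0.144) at 1 week and -1.95 (SE 0.31, adjusted p = 0.0121 by edgeR) at 1 month, where it fell, and the difference between times was -3.97 (SE 0.69). Within 1 month C1qa had -2.26 in batch 2 and -1.03 in batch 3. C1qb fell at 1 month too, at -1.38 (SE 0.28, adjusted p = 0.0302 by edgeR), with -1.71 in batch 2 and -0.61 in batch 3. The 1-month call of C1qa was lost without KO replicate 1 or 2 (adjusted p = 0.0733 and 0.0676 by edgeR), and that of C1qb without KO replicate 1 or 2 or WT replicate 1 or 2 (0.0825 to 0.102).
Clu, the gene of clusterin, a secreted chaperone that blocks the complement attack complex, had 268, 221 and 404 CPM in WT and 540.2, 712 and 471 CPM in KO at 1 week. At 1 month Clu had 348, 309.7 and 506 CPM in WT and 128, 164 and 169 CPM in KO. It lay on opposite sides without overlap in both batches, with -1.18 in batch 2 and -1.58 in batch 3. It fell at 1 month by 1.36 on the log2 scale (SE 0.21, adjusted p = 0.00991 by edgeR), and its difference between times was -2.37 (SE 0.39). Serping1, the C1 inhibitor gene, differed from these and rose at 1 month, at 1.31 (SE 0.28, adjusted p = 0.0315 by edgeR), with 0.81 at 1 week. The call of Clu was lost without KO replicate 1 of 1 month (adjusted p = 0.0562 by edgeR), and that of Serping1 without KO replicate 1 or 2 or WT replicate 1 or 2 (0.0574 to 0.120). Of the 17, 8 lay wholly above WT at 1 week (9.39% of all genes) and 0 at 1 month, and 0 and 4 lay wholly below (10.6% and 5.01%). Over 15 members the median difference between times was -1.72, and the 1-month median was -0.58 in batch 2 and -0.07 in batch 3.

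Csf1r, the receptor that macrophages need to survive, had 52.5, 26.1 and 34.6 CPM in WT and 78.4, 76.9 and 164 CPM in KO at 1 week. At 1 month Csf1r had 357, 376 and 196 CPM in WT and 140.0, 121 and 164 CPM in KO, and it fell there by 1.13 on the log2 scale (SE 0.26, adjusted p = 0.0429 by edgeR). The genotypes did not overlap at either time, and the difference between times was -2.69 (SE 0.57). Within 1 month the value of Csf1r was -1.49 in batch 2 and -0.26 in batch 3, and the call was lost without KO replicate 1 or 2 or WT replicate 1 or 2 (adjusted p of 0.119 to 0.177 by edgeR). Ptprc, the common leukocyte antigen gene, had -1.69 (SE 0.55) between times. The 24 leukocyte markers summed to 119 to 181 CPM in WT and 200 to 289 CPM in KO at 1 week, and to 374 to 591 CPM in WT and 224 to 308 CPM in KO at 1 month. Neither time had overlap, and 10 of 24 markers lay wholly below WT at 1 month (5.01% of all genes). At 1 week 4 lay wholly above WT (9.39%) and 3 wholly below (10.6%). Over 15 members the median difference between times was -1.39, and -0.76 without KO replicate 2 of 1 week. No marker was at 0 counts in all libraries of a group, but 9 of 24 were too low to be tested at both times, among them Cd3e of T cells, with a mean of 8.25 counts per library, named after its value was seen. Whether the complement genes followed the number of these cells was not tested.

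Of 10 MHC class II genes, which show antigen to T cells, 7 had a lower mean in KO at 1 week and 6 at 1 month. KO and WT overlapped for all 10 at 1 week, and KO lay wholly below WT for 3 at 1 month (5.01% of all genes). At 1 month 2 passed the test as lower (1.22% of all genes tested). Over 7 members tested at both times the median difference was -0.41 at 1 week and -0.83 at 1 month. The median difference between times was -0.44. It was -0.07 without KO replicate 2 and -0.89 without KO replicate 3 of 1 week, and -0.02 with voom. Cd74, the invariant chain gene, had 119.7, 67.1 and 124 CPM in WT and 102, 62.9 and 138 CPM in KO at 1 week, with overlap. At 1 month Cd74 had 499.6, 595 and 293 CPM in WT and 122, 188 and 104 CPM in KO and fell by 1.76 on the log2 scale (SE 0.23, adjusted p = 0.00344 by edgeR). H2-Ab1 also fell at 1 month, at -1.10 (SE 0.25, adjusted p = 0.0420 by edgeR), with -1.32 in batch 2 and -0.51 in batch 3. The call of H2-Ab1 was lost without KO replicate 1 or 2 or WT replicate 1 or 2 (adjusted p of 0.0757 to 0.196 by edgeR), and that of Cd74 held without each of the 6 libraries in turn. The difference between times of Cd74 was -1.78 (SE 0.48).

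Among interferon-stimulated genes, 11 of 49 lay wholly above WT at 1 week (9.39% of all genes) and 5 wholly below at 1 month (5.01%). Ifi27l2a, a small membrane protein gene, had 23.5 to 30.4 CPM in WT and 38.6, 105 and 53.7 CPM in KO at 1 week, and 165, 109 and 80.0 CPM in WT and 29.7, 50.3 and 35.1 CPM in KO at 1 month. It was the only one of the 43 members tested at both times to pass at 1 month, at -1.63 (SE 0.26, adjusted p = 0.0102 by edgeR), and its difference between times was -2.99 (SE 0.55). Without KO replicate 1 of 1 month the adjusted p of Ifi27l2a was 0.0505 by edgeR. The antiviral synthetase gene Oas2 had -3.52 (SE 0.80) and the antiviral membrane protein gene Ifitm3 -1.81 (SE 0.45). The median difference between times was -0.66 over 43 members. It was -0.29 without KO replicate 2 and -0.34 without WT replicate 3 of 1 week, and -0.40 without KO replicate 1 and -0.36 without WT replicate 2 of 1 month.

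Cytokine genes held both patterns. Il33, an alarm cytokine of epithelium and stroma, had 15.3 to 21.8 CPM in WT and 26.4, 258 and 84.0 CPM in KO at 1 week. At 1 month Il33 had 14.2 to 22.4 CPM in WT and 7.85, 9.15 and 5.62 CPM in KO, and fell by 1.32 on the log2 scale (SE 0.27, adjusted p = 0.0302 by edgeR). The macrophage chemokine gene Ccl8 had a difference between times of -5.60 (SE 1.10). Il1rn, the interleukin-1 receptor antagonist gene, was higher early alone, with a difference between times of -2.85 (SE 0.63). Cxcl14, a chemokine of epithelium and stroma, was higher at both times, at 1.32 (SE 0.32) at 1 week and 1.10 (SE 0.23, adjusted p = 0.0302 by edgeR) at 1 month. The 1-month calls of Il33 and Cxcl14 were each lost without KO replicate 1 or 2 or WT replicate 1 or 2, with adjusted p of 0.0645 to 0.172 and 0.0553 to 0.0913 by edgeR.

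Circadian clock genes were lower in KO at 1 week. Dbp, a clock output factor, had 80.0, 102 and 55.2 CPM in WT and 7.54, 9.06 and 6.16 CPM in KO at 1 week, a log2 difference of -3.32 (SE 0.37, adjusted p = 0.0420 by edgeR). At 1 month Dbp had 19.4, 25.5 and 77.1 CPM in WT and 29.5, 18.5 and 48.4 CPM in KO, with overlap, and its difference between times was 3.13 (SE 0.47, adjusted p = 0.0879 by edgeR). The 1-week call of Dbp was lost without KO replicate 1 or 2 (adjusted p = 0.0574 and 0.115 by edgeR) and without WT replicate 1, 2 or 3 (0.214 to 0.348). WT replicate 3 and KO replicate 3, both of batch 3, were the 2 highest at 1 month. The clock repressor gene Per2 had a difference between times of 3.57 (SE 0.91), and its WT level at 1 month was 0.391 and 2.10 CPM in batch 2 and 37.2 CPM in batch 3. Tef, a relative of Dbp, had 1.23 (SE 0.59). Of 19 clock genes, 11 lay wholly below WT at 1 week (10.6% of all genes) and 3 at 1 month (5.01%). Their sum was 775 to 778 CPM in WT against 335 to 448 CPM in KO at 1 week. At 1 month it was 807 to 895 against 610 to 721, so the sum was lower in KO without overlap at both times. Over 18 members the median difference between times was 0.69, and Clock, a driver of the cycle, went the other way with -1.19 (SE 0.42). The hour of collection is not given in the sources used here, so its part in these values was not tested.

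Of 17 MHC class I genes, 12 had a lower mean in KO at 1 week and 6 at 1 month, and none passed the test at either time. B2m, the light chain of every class I molecule, had 923, 707 and 765 CPM in WT and 266, 236 and 94.6 CPM in KO at 1 week. At 1 month B2m had 331, 412 and 1175 CPM in WT and 498, 462 and 716 CPM in KO, with the batch 3 WT library far above the others. Its log2 difference was -1.96 (SE 0.42) at 1 week, 0.38 in batch 2 and -0.71 in batch 3, and the difference between times was 1.93 (SE 0.51). The immunoproteasome gene Psmb9 and the heavy chain gene H2-D1 had differences between times of 2.44 (SE 0.69) and 1.63 (SE 0.49). Over 17 members, 7 lay wholly below WT at 1 week (10.6% of all genes) and 1 at 1 month (5.01%), and 1 lay wholly above at each time. Their median difference between times was 0.39 over 15 members and 0.17 with the Xist term. With 1 library left out it was 1.36 without KO replicate 1 and 0.99 without KO replicate 3 of 1 week, 0.74 without KO or WT replicate 3 of 1 month and 0.25 without WT replicate 1 of 1 month.

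Ribosomal protein genes were lower early in most members, and the size of this depended on KO replicate 3 of 1 week. Of 38 members, 22 lay wholly below WT at 1 week (10.6% of all genes) and 1 at 1 month (5.01%). Their sum was 85281, 79931 and 75926 CPM in WT and 56911, 55471 and 47257 CPM in KO at 1 week, without overlap, and 81610 to 117070 in WT and 69347 to 102240 in KO at 1 month, with overlap. The median difference between times was 0.73 over 37 members and 0.36 without KO replicate 3 of 1 week. For nuclear-encoded respiratory chain subunits the median was 0.51, 0.08 without that library and 0.98 without KO replicate 2 of 1 week. Rps23, a protein of the decoding centre, had 433 and 461 CPM in WT of batch 2 and 2287 CPM in WT of batch 3 at 1 month, against 1423, 1289 and 2329 CPM in KO.

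**Figure D4:**
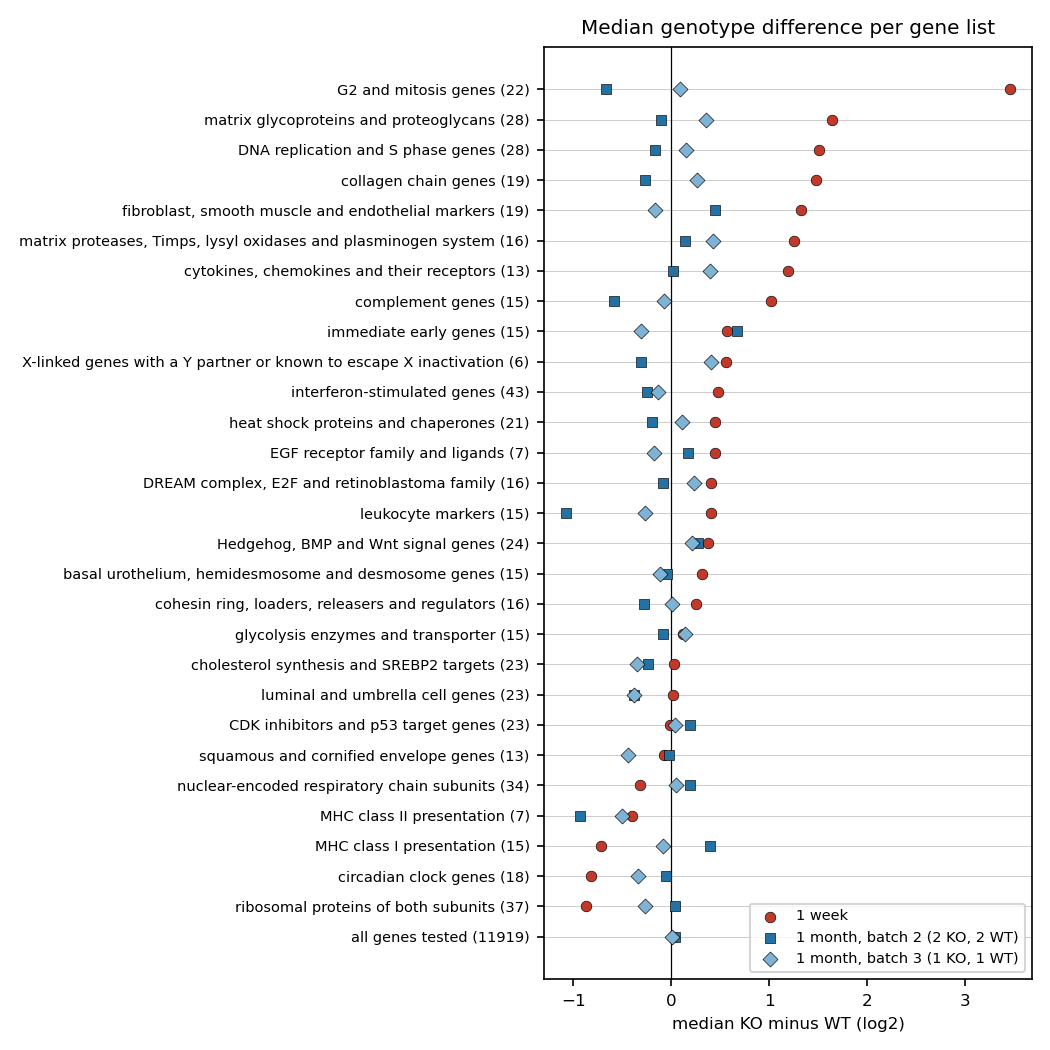
Median log2 difference of KO minus WT over the members of each list tested at both times, with the number of members in brackets, at 1 week (circles), in batch 2 of 1 month (squares) and in the single pair of batch 3 (diamonds). The lists with the highest 1-week median, such as G2 and mitosis with 3.45 at 1 week, have lower medians in both batches of 1 month. Some of them stay above 0 there, such as markers of fibroblasts, smooth muscle and endothelium with 0.44 in batch 2. Matrix proteases and related genes have 0.42 in batch 3. Leukocyte markers reach -1.07 in batch 2.

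Of genes separated as lower in KO at 1 week, 635 were separated at that time alone (5.33%) and 13 as higher at 1 month (0.109%). The genes given here were lower in KO at 1 week and higher or level at 1 month. Nek5, a kinase of the NIMA family, had 7.73, 9.52 and 13.9 CPM in WT and 2.83, 0.755 and 0.385 CPM in KO at 1 week, and 1.17, 1.22 and 2.74 CPM in WT and 4.86, 8.003 and 5.93 CPM in KO at 1 month. Neither time had overlap, and the difference between times of Nek5 was 4.78 (SE 0.85). Pura, a gene of a single-strand binding protein, had 62.1, 74.2 and 120.5 CPM in WT and 24.0, 26.4 and 40.6 CPM in KO at 1 week, and 29.9, 72.7 and 148 CPM in WT and 233, 186 and 213 CPM in KO at 1 month. It also had no overlap, with a difference between times of 2.92 (SE 0.61). Cbr3, a carbonyl reductase gene, rose at 1 month, at 1.98 (SE 0.42, adjusted p = 0.0314 by edgeR; 2.54 in batch 2 and 1.22 in batch 3), after -1.001 (SE 0.41) at 1 week. Csf2ra, a chain of the GM-CSF receptor, rose at 1 month with 5.28, 5.94 and 23.8 CPM in WT and 17.1, 28.1 and 46.7 CPM in KO, at 1.56 (SE 0.30, adjusted p = 0.0249 by edgeR), after -1.17 (SE 0.46) at 1 week. Its WT and KO libraries of 1 month overlapped through WT replicate 3. The call of Cbr3 was lost without KO replicate 1 or 2 or WT replicate 1 or 2 (adjusted p of 0.0743 to 0.125 by edgeR), and that of Csf2ra without KO replicate 2 or WT replicate 1 or 2 (0.0731 to 0.133). The deubiquitinase gene Fam63a, the valine breakdown gene Hibadh and the Polycomb gene Cbx7 had differences between times of 2.10 (SE 0.41), 2.95 (SE 0.58) and 2.29 (SE 0.49). All 3 were separated at 1 week alone: at 1 month Fam63a had 1.01 (SE 0.24, adjusted p = 0.0481 by edgeR) with overlap, Hibadh 0.73 (SE 0.37, with 1.40 in batch 2 and -0.23 in batch 3) and Cbx7 0.48 (SE 0.27), and the last 2 did not pass. The call of Fam63a was lost without KO replicate 1 or 2 or WT replicate 1 or 2 of 1 month (adjusted p of 0.108 to 0.209 by edgeR).

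The late genes named here passed the edgeR test at 1 month and had a fitted log2 difference under 0.5 in size at 1 week, whether or not their libraries overlapped. Fmod, the gene of fibromodulin, a small proteoglycan on collagen fibrils, had 14.3, 18.4 and 12.7 CPM in WT and 0.748, 0.490 and 1.40 CPM in KO at 1 month. It fell by 4.13 on the log2 scale (SE 0.44, adjusted p = 0.000968 by edgeR), with 1.41 to 3.55 CPM in WT and 0.385 to 4.85 CPM in KO at 1 week. The difference between times of Fmod was -4.00 (SE 1.03). Padi1, an enzyme that converts arginine to citrulline, and the palmitoyltransferase gene Zdhhc9 fell at 1 month by 1.85 (SE 0.22, adjusted p = 0.00155) and 1.35 (SE 0.22, adjusted p = 0.0116 by edgeR). Tmem229a fell by 2.02 (SE 0.30, adjusted p = 0.00846 by edgeR). Lyz1, a lysozyme gene, had 74.9, 68.3 and 29.7 CPM in WT and 18.6, 16.3 and 8.27 CPM in KO and fell by 2.02 (SE 0.22, adjusted p = 0.00113 by edgeR). Of these calls only that of Zdhhc9 was lost without a single library, KO replicate 1 (adjusted p = 0.0584 by edgeR). Lyz1 has a near-identical copy, Lyz2, whose reads may be split between them, and Lyz2 had 0.782 to 19.4 CPM at 1 month with overlap.

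Of the late genes named here that rose, Colec11, a collectin of innate defence, had the largest log2 difference at 1 month. It had 1.17, 1.22 and 1.22 CPM in WT and 7.60, 8.33 and 8.74 CPM in KO at 1 month, a log2 difference of 2.70 (SE 0.42, adjusted p = 0.00980 by edgeR), and 0.193 to 1.75 CPM with overlap at 1 week. 1110018G07Rik, now named Arel1, a ubiquitin ligase gene, had 9.39, 13.3 and 19.97 CPM in WT and 43.1, 47.5 and 59.3 CPM in KO at 1 month, where it rose by 1.80 (SE 0.24, adjusted p = 0.00352 by edgeR). The kinesin light chain gene Klc1 rose by 1.59 (SE 0.27, adjusted p = 0.0141 by edgeR), though its WT replicate 3 at 110 CPM lay above 2 KO libraries at 77.2 and 83.3 CPM. Abhd1, Vopp1 and Tmem181c-ps also rose, by 1.79 (SE 0.30), 1.43 (SE 0.24) and 1.44 (SE 0.24). Without WT replicate 2 the calls of Klc1, Vopp1, Tmem181c-ps and Abhd1 were lost (adjusted p of 0.0793, 0.0557, 0.0576 and 0.0769 by edgeR), and without KO replicate 1 that of Abhd1 (0.0505). The difference between times was 2.35 (SE 0.88) for Colec11 and 1.39 (SE 0.38) for 1110018G07Rik, so the late genes do not pass the edgeR test of the difference itself.

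Of 24 luminal urothelial genes, the mean was lower in KO for 12 at 1 week and 17 at 1 month. Among them 8 had an unadjusted interaction p under 0.05, all with a lower difference at 1 month (12% of all genes). Krt5, the basal keratin gene, had 600.4, 601 and 657 CPM in WT and 340.2, 700.4 and 444 CPM in KO at 1 week, with overlap. At 1 month Krt5 had 111, 200.1 and 504 CPM in WT and 611, 630.5 and 691 CPM in KO, without overlap, at 1.44 (SE 0.34, adjusted p = 0.0505 by edgeR), and 2.06 in batch 2 against 0.46 in batch 3. Its difference between times was 1.71 (SE 0.53). The basal regulator gene Trp63 had a difference between times of 1.42 (SE 0.40). Most of the basal list went the other way: of 15 members tested at both times, 9 had a lower difference at 1 month and 6 a higher one. Of 22 basal genes with counts, 3 lay wholly above WT at 1 week (9.39% of all genes) and 3 at 1 month (5.41%). Wholly below WT lay 2 at 1 week (10.6%) and 0 at 1 month (5.01%). Among luminal genes, Tjp1, a tight junction scaffold, fell at 1 month by 1.11 (SE 0.23, adjusted p = 0.0284 by edgeR). Krt20, the umbrella cell keratin, fell by 1.76 (SE 0.25, adjusted p = 0.00601 by edgeR) and Gsdmc2, a gasdermin, rose by 1.18 (SE 0.24, adjusted p = 0.0292 by edgeR), both chosen after their values were seen. The calls of Tjp1 and Gsdmc2 were lost without KO replicate 1 or 2 or WT replicate 1 or 2 (adjusted p of 0.0518 to 0.153 and 0.0674 to 0.174 by edgeR). Sprr2f, a cornified envelope gene, had 0.573 to 1.52 CPM in WT and 27.6, 139 and 108 CPM in KO at 1 week and 0.524 to 3.59 CPM with overlap at 1 month, a difference between times of -5.50 (SE 1.09). The median difference between times was -0.43 over 23 luminal genes and -0.47 over 15 basal genes, and the former was -0.20 without KO replicate 2 and -0.23 without WT replicate 1 of 1 month and -0.27 without KO replicate 3 of 1 week. The basal median was 0.10 without KO replicate 2, -0.11 without KO replicate 3 and -0.29 without WT replicate 1 of 1 week, and -0.25 without KO or WT replicate 3 of 1 month.

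Persistent genes kept their side at both times. Hrh3, a histamine receptor gene, was the only gene that passed the edgeR test at both times. It had 18.3, 19.4 and 19.4 CPM in WT and 0 CPM in all 3 KO libraries at 1 week, at least 43.7-fold lower against a floor of 3 counts per library. At 1 month Hrh3 had 12.7, 7.17 and 13.9 CPM in WT and 0.748, 0.163 and 0.156 CPM in KO, and fell by 4.83 on the log2 scale (SE 0.57, adjusted p = 0.00155 by edgeR). At 1 week its adjusted p was 0.0275 by edgeR, and that call was lost without KO replicate 2 (0.0515) and without WT replicate 1, 2 or 3 of 1 week (0.301 to 0.373).
Uchl1, an abundant deubiquitinase of neurons and neuroendocrine cells, had 963, 727 and 1602 CPM in WT and 251, 43.9 and 52.96 CPM in KO at 1 week. At 1 month Uchl1 had 2704, 1588 and 1116 CPM in WT and 748, 257 and 138 CPM in KO. KO lay wholly below WT at both times, at -3.19 (SE 0.74, adjusted p = 0.137) at 1 week and -2.44 (SE 0.41, adjusted p = 0.0196 by edgeR) at 1 month, with a difference between times of 0.77 (SE 0.89, 95% interval -1.17 to 2.71).
Cntnap2, a neurexin family adhesion gene, had 55.0, 37.2 and 72.1 CPM in WT and 16.02, 9.39 and 3.27 CPM in KO at 1 week, and 48.1, 33.0 and 35.7 CPM in WT and 7.36, 4.90 and 4.68 CPM in KO at 1 month. It fell at 1 month by 2.82 (SE 0.28, adjusted p = 0.000824 by edgeR), alike in batch 2 and batch 3 at -2.67 and -2.86, and its difference between times was -0.36 (SE 0.63, 95% interval -1.74 to 1.01). Syt1, the calcium sensor gene of synaptic vesicles, the tubulin gene Tubb2b and the thyroxine carrier gene Ttr were also separated as lower at both times and passed at 1 month, with -2.28 (SE 0.53), -3.03 (SE 0.58) and -3.00 (SE 0.41) and adjusted p of 0.0443, 0.0272 and 0.0113 by edgeR. The differences between times of Syt1, Tubb2b and Ttr were 0.60 (SE 0.85), -0.99 (SE 1.18) and -0.39 (SE 0.87). The 1-month call of Uchl1 was lost without WT replicate 1 (adjusted p = 0.104 by edgeR) and that of Tubb2b without KO replicate 1 or WT replicate 2 (0.0788 and 0.124). The call of Syt1 was lost without any 1 of the 6 libraries (0.0539 to 0.166). In Uchl1, Cntnap2, Syt1, Tubb2b and Ttr no difference between times was detectable, and the intervals of Uchl1 and Cntnap2 still hold differences of 2-fold in either direction. Hrh3 had a fitted difference between times of 5.17 (SE 1.35, 95% interval 2.22 to 8.13, adjusted p = 0.116 by edgeR). The fitted gap of Hrh3 was smaller at 1 month, but this difference did not pass. With KO at 0 at 1 week its size depends on the prior count of the fit.

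Persistent higher genes were led by Adamts4, a protease that cuts matrix proteoglycans. It had 0 CPM in all WT and 3.37, 19.0 and 12.7 CPM in KO at 1 week, at least 33.8-fold higher against the same floor, and 0.978, 1.57 and 0.305 CPM in WT and 2.24, 10.6 and 7.49 CPM in KO at 1 month. Its 1-month difference was 2.81 (SE 0.68, adjusted p = 0.0519 by edgeR). The fitted difference between times of Adamts4 was -6.58 (SE 1.88, 95% interval -10.68 to -2.47, adjusted p = 0.134 by edgeR), and with WT at 0 at 1 week its size depends on the prior count. Adamts4 kept its side at both times. Its fitted gap was smaller at 1 month, but this difference did not pass. Greb1, an estrogen response gene, had 0.688 to 1.31 CPM in WT and 5.79, 7.01 and 1.54 CPM in KO at 1 week, and 1.37, 1.75 and 5.03 CPM in WT and 11.3, 20.3 and 9.37 CPM in KO at 1 month, where it rose by 2.33 (SE 0.50, adjusted p = 0.0362 by edgeR). Ern2, a stress sensor of the endoplasmic reticulum in epithelium, rose at 1 month by 1.81 (SE 0.33, adjusted p = 0.0209 by edgeR). The call of Ern2 was lost without KO replicate 2 or WT replicate 1 (0.0811 and 0.0595), and that of Greb1 without KO replicate 1 or 2 or WT replicate 1 or 2 (0.0788 to 0.175). Egr1, an immediate early transcription factor gene, had 13.8 to 22.3 CPM in WT and 45.2, 144 and 842 CPM in KO at 1 week, and 6.84, 17.0 and 9.76 CPM in WT and 27.2, 84.1 and 34.2 CPM in KO at 1 month. The adaptor gene Fblim1 and E030010A14Rik had 1-month differences of 1.66 (SE 0.42) and 1.60 (SE 0.60) that did not pass. The difference between times was -2.80 (SE 1.19, 95% interval -5.39 to -0.21) for Fblim1, -2.29 (SE 1.19) for Egr1 and -2.46 (SE 1.41) for E030010A14Rik, against 0.15 (SE 0.97) for Greb1 and -0.35 (SE 0.89) for Ern2. The highest early value of Egr1 and of Fblim1 came from KO replicate 3 of 1 week, which had the lowest correlations to the rest.

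The other genes that passed at 1 week, beside Hrh3, Vcan and Dbp, were sex-linked, and at 1 month the Y-linked ones were at 0 in the KO library that carried Xist. Ddx3y, a Y-linked helicase gene, had 95.7, 93.8 and 135 CPM in WT and 0.269, 0 and 0 CPM in KO at 1 week, and 92.9, 95.6 and 90.9 CPM in WT and 116, 113 and 0 CPM in KO at 1 month. Eif2s3y, Uty and Kdm5d showed the same libraries with and without reads. Kdm6a, an X-linked histone demethylase gene that escapes silencing, had 27.7 to 40.5 CPM in WT and 81.1, 57.7 and 75.1 CPM in KO at 1 week, and 36.2, 33.7 and 18.1 CPM in WT and 21.3, 22.7 and 27.2 CPM in KO at 1 month. Its 1-month difference was -0.66 in batch 2, where no library carries Xist, and 0.57 in the batch 3 pair. The demethylase gene Kdm5c, also known to escape, had a difference between times of -1.03 (SE 0.37), and Kdm6a -1.46 (SE 0.42).

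The cohesin genes and a few further lists are read against the same background, 9.39% higher and 10.6% lower at 1 week and 5.41% and 5.01% at 1 month. Of 21 genes of the cohesin ring and its regulators, 5 lay wholly above WT and 1 wholly below at 1 week, and 0 and 1 at 1 month. Chaperones lay wholly above WT for 9 of 21 at 1 week and 1 at 1 month. Genes of cholesterol synthesis went the other way in time, with 0 of 25 wholly below WT at 1 week and 6 at 1 month. Of 25 CDK inhibitors and p53 targets, which hold cells at rest or answer to DNA damage, 4 lay wholly above and 4 wholly below WT at 1 week, and 3 and 1 at 1 month.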

How the data were processed

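The values are gene counts as the authors deposited them, 1 table for each time, with 23337 genes and no unassigned columns. Per the submitters' processing notes, Bowtie, TopHat, HTSeq and DESeq2 were used with mm10; their roles, versions and the annotation are not given in the sources used here. Per the labels' protocols the libraries are 3′ libraries of the sense strand, and the setting for stranded counting is named. Total counts ran from 5580961 to 9497088 per library.

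The deposited counts were tested with edgeR 4.0.16 in R 4.3.3 (quasi-likelihood test, robust, TMM scaling, filterByExpr, adjustment by Benjamini-Hochberg, threshold 0.05). Each time had its own fit, with batch as a term at 1 month, and the difference between times came from a fit of all 12 libraries with batch 3 as a term. CPM are scaled by TMM over all 12 libraries. A standard error is the log2 difference divided by the square root of F. Batches 2 and 3 are set apart as simple differences of log2 CPM with a prior count of 2. The script was tested on simulated data.

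Members and gene lists were chosen with earlier results of these data known. Symbols were matched to RefSeq for 20756 genes directly and 2316 by synonym; 265 had no match. Named genes are Stag2 and Stag1, the 8 with the smallest interaction p in each direction (mean of at least 20 counts), all genes called at 1 week or at both times, up to 4 with the smallest p and 2 most abundant per list described, the 6 per direction that persist most and the 6 that are late, and the 4 per order that lie on opposite sides. Alternatives were DESeq2 1.42.0, limma 3.58.1 with voom, other scalings and filters, no batch term, batch 2 alone, Xist as a term (present above 10 CPM), and each library left out in turn. A few items the rule or lists would name are not reported here.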

Additional observations from a re-analysis of the deposited data

Results flagged for a closer look

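All KO libraries lay above all WT libraries at 1 week and below them at 1 month in 31 genes, and the reverse held in 13; 8 of these are given here, the 4 of each order with the smallest interaction p among genes with a mean of at least 20 counts. C1qa, C1qb, Csf1r, Ccl8, Ifi27l2a, Il33 and Oas2, described above, also belong to the 31. The differences between times were -4.797 for Spc25, -2.365 for Clu, -5.767 for 2810417H13Rik and -4.901 for Mcm5, which were higher in KO first. They were 4.779 for Nek5, 2.919 for Pura, 3.045 for Cbr3 and 3.542 for D630039A03Rik, which were lower in KO first. D630039A03Rik had 8.59, 8.14 and 3.81 CPM in WT and 1.62, 2.27 and 1.35 CPM in KO at 1 week, and 1.37, 1.05 and 5.34 CPM in WT and 7.60, 6.37 and 6.40 CPM in KO at 1 month. None of the 8 passed the edgeR interaction test after adjustment by Benjamini-Hochberg, with adjusted p of at least 0.0879. Since the 8 were picked by size of p, their sizes are a description.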

How the results depend on the processing

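No paired analysis was possible because the labels carry no replicate numbers; libraries were numbered in accession order. The interaction count of 0 became 917 with DESeq2, 67 with voom, 137 without the filter on low counts and 15 with batch 2 alone, and 0 to 440 with 1 library left out. The 1-week count of 8 became 957 with DESeq2, 82 with voom, 62 without the filter and 553 in the fit of all 12 libraries, and 0 to 320 with 1 library left out. The 1-month count of 269 became 768 with DESeq2, 1276 without the filter, 561 by library size, 1474 with batch 2 alone, 0 without the batch term, 0 in the fit of all 12 libraries, and 45 to 1522 with 1 library left out. With a log2 difference of at least 0.5, 2421 genes were separated at 1 week only, 819 at 1 month only, 180 at both in 1 direction and 137 in opposite directions. With batch 2 alone, 1358 were separated at 1 month only against 1194 at 1 week only, which turns the order of the 2 classes, and 265 in opposite directions. The cause of these shifts was not tested. The sign of the Stag2 difference between times turned with DESeq2 (-0.02896), the Xist term (-0.3133) and size factors (-0.03284), and the value ran from -0.1288 to 0.195 with 1 library left out. Signs also turned for Dyrk1a by library size (0.1281), and with the Xist term for Rbbp4 (-0.05706), Syt1 (-0.3834), Ttr (0.2636), Greb1 (-1.358) and Ern2 (0.3537; 0.01105 by library size). With 1 library left out the values ran from -0.7366 to 0.1771 for Cntnap2, -0.1051 to 0.706 for Rbbp4, -0.8508 to 0.6899 for Ttr, -0.2825 to 1.004 for Greb1, -0.689 to 0.7714 for Ern2 and -1.515 to 0.2454 for Tubb2b. With 3 libraries per group and a spread of 44.4% at 1 week, low counts and single libraries limit what can be told.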
